A study of Mus musculus
Rattus norvegicus and Rattus norvegicus and Mus musculus with 18 samples.

Results

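Genes that interferons switch on in many cell types, the interferon-stimulated genes, were followed in the tumor cells and in the host of a mouse-in-rat breast cancer model. A list of 40 such genes was matched by gene symbol. All 40 were found in the mouse table of 17672 genes, and 39 of 40 in the rat table of 14876 genes, where Samd9l was not found. By role they are 4 transcription factors, 6 sensors of nucleic acids, 4 oligoadenylate synthetases, 12 antiviral effectors, 7 genes of the ISG15, ubiquitin and ADP-ribose systems, 4 interferon-inducible GTPases and 3 further Ifi genes.

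Interferons are secreted proteins that bind receptors on neighbouring cells and act through the kinases Jak1, Jak2 and Tyk2. Phosphorylated Stat2 then acts with Irf9 in a complex that enters the nucleus and turns on genes carrying its binding element. In tumors, the same genes are known to be active in cancer cells, macrophages and other stromal cells, and many of them sense or restrict foreign and misplaced nucleic acids.

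The 4T1 line is a metastatic mouse mammary carcinoma line, here grown in the mammary fat pad of SRG rats, which lack the genes Rag2 and Il2rg and therefore have almost no T, B and NK cells. Mouse-gene reads stand for 4T1 cells, and rat-gene reads for host cells. PolyA RNA was sequenced from 5 necrotic tumor cores, 5 lungs and 5 non-necrotic tumor rims, all taken on day 27, and from the single-species controls, a 4T1 cell pellet (1 library) and rat mammary gland that bore no xenograft (2 libraries). The labels give each group the genotype wildtype and no treatment, state no age, and do not say whether the gland came from SRG rats. Cores and rims came from the same 5 rats. The lungs came from 4 of these rats (Rat3869, Rat3875, Rat3876 and Rat3877) and from Rat3789, of which no core or rim was used. A core is a dissected necrotic region, so its RNA comes from the cells and remains that this region still held.

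Libraries held 15346400 to 26669410 reads on mouse genes and 3146720 to 10015352 on rat genes, with the fewest rat reads in the cores (3146720 to 4221679). In the controls, 0.718% of the pellet reads fell on rat genes and 1.78% and 1.96% of the gland reads on mouse genes. From these shares, wrongly assigned reads were estimated at a median of 1.14% of a member's host reads in cores and at most 14.1%, for Oas3. Among mouse members the highest estimate was 7.69%, for Gbp5 in rims. One library did not go with its label. The library labelled lung of Rat3789 held 1.88 CPM (counts-per-million of the reads of a species, the scale of the deposited tables) of host Sftpc, the surfactant protein of alveolar cells, against 3126 to 5676 CPM in the other 4 lungs. Its summed level of 6 lung epithelium markers was 178 CPM, against 8946 to 16343 CPM in the other 4 lungs and 67.2 to 180 CPM in rims. It is kept in the comparisons of the lung, and the counts there are also given without it.

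Several members lie next to each other in the mouse genome (GRCm38). Ifit2 (34550694 to 34576419), Ifit3 (34583531 to 34588731) and Ifit1 (34640871 to 34650009) stand in a row on the plus strand of chromosome 19. Rsad2 (26442746 to 26456452, minus strand) and Cmpk2 (26469204 to 26479837, plus strand) face away from each other on chromosome 12. Parp14 (35832874 to 35871544, minus), Dtx3l (35926511 to 35939151, minus) and Parp9 (35938470 to 35972605, plus) share a stretch of chromosome 16, and the ends of Dtx3l and Parp9 overlap on opposite strands. Of the 40 loci, 16 overlap another annotated gene. With the strand setting not given in the sources used here, reads from overlapping genes cannot be told apart, and members with close relatives in the same cluster (the Ifit, Oas, Mx and Gbp genes) could share reads.

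Between necrotic core and rim, most host interferon-stimulated genes were lower in the core. Of 39 members tested in rat, 28 were lower in cores, 2 were higher (Ifit1 and Ifit3) and 9 did not pass the test (limma on log2 values with the rat as a block, adjusted p under 0.05 over all 13559 rat genes tested). Among all rat genes tested, 20.1% were lower and 17.5% higher. The median member difference was -0.87 on the log2 scale, where the median of all rat genes was -5.84e-05. In 13 members all 5 cores lay below all 5 rims, against 14.6% of all rat genes, and in 0 members all cores lay above all rims, against 11.8% of all rat genes. The lower members included all 4 oligoadenylate synthetases, 5 of 6 sensors, 3 of 4 transcription factors, 7 of 11 antiviral effectors, 4 of 7 genes of the ISG15, ubiquitin and ADP-ribose systems, 3 of 4 GTPases and 2 of 3 further Ifi genes.

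**Figure D1:**
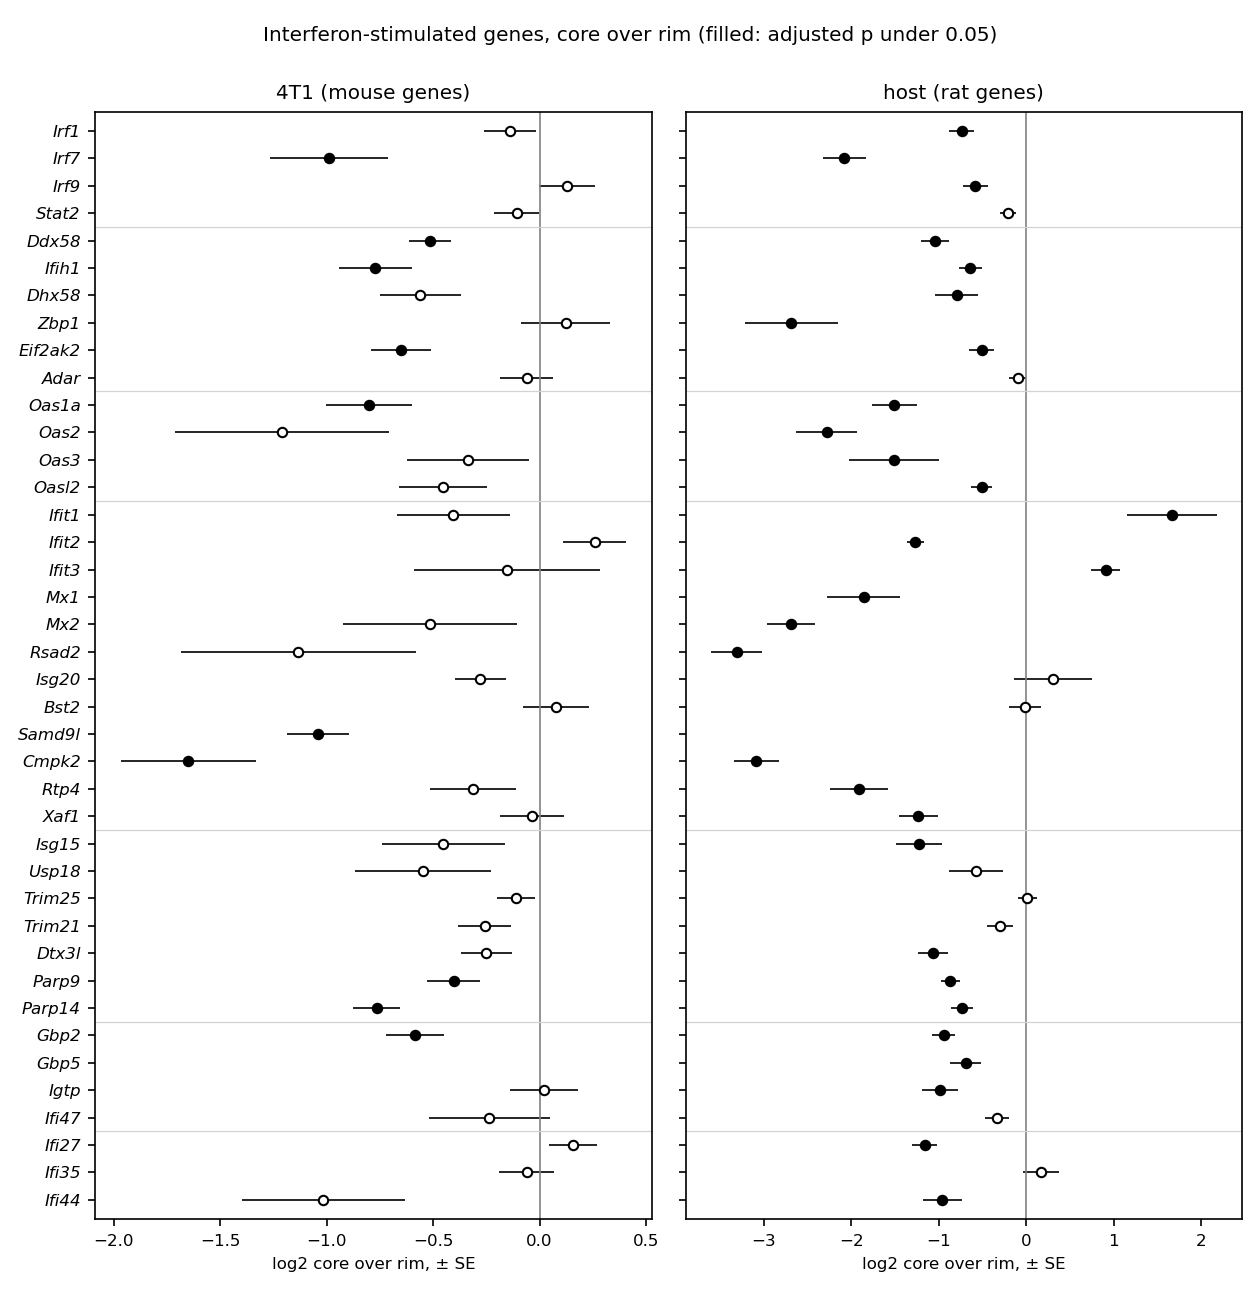
Log2 difference of each interferon-stimulated gene, core over rim (x axis), in 4T1 cells (left, mouse genes) and host (right, rat genes), with standard errors as bars, genes ordered by role and filled points where the adjusted p was under 0.05. Host points reach further left than 4T1 points, and host Ifit1 and Ifit3 stand to the right of 0.

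Among the transcription factors, host Irf7, which amplifies interferon production, showed the largest difference. In the order Rat3867, Rat3869, Rat3875, Rat3876 and Rat3877, used for cores and rims throughout, host Irf7 measured 27.1, 29.1, 14.5, 23.6 and 30.9 CPM in cores, against 145, 64.2, 61.5, 74.5 and 262 CPM in rims. All cores lay below all rims, and the rim of Rat3877 was the highest library. The log2 difference was -2.08 ± 0.24 (SE, n = 5 rats), or 4.22-fold lower, with an adjusted p of 0.00046. Host Irf1, a factor that interferon gamma induces strongly, averaged 28.4 ± 6.39 CPM in cores and 47.3 ± 11.3 CPM in rims (SD, n = 5 each) and was lower in 5 of 5 rats by a log2 difference of -0.74 ± 0.14 (adjusted p 0.00472). Irf9, the DNA-binding partner of Stat2, was lower, with a log2 difference of -0.58 ± 0.14 (adjusted p 0.0134). Stat2, the host factor with the most reads, was not called. It measured 137, 93.1, 116, 119 and 125 CPM in cores, against 165, 119, 118, 119.8 and 164 CPM in rims, with a difference of -0.21 ± 0.09 and an adjusted p of 0.108.

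The host sensors of RNA and DNA were lower in cores, apart from the RNA-editing enzyme Adar. Ddx58, which encodes the RNA sensor RIG-I, measured 13.2, 6.15, 9.38, 8.80 and 14.3 CPM in cores, against 32.7, 14.3, 14.8, 17.4 and 29.7 CPM in rims. The cores did not reach the lowest rim, though the highest core and the lowest rim were nearly equal, and the difference was -1.05 ± 0.16 (adjusted p 0.00156). Zbp1, a sensor of Z-form nucleic acids linked to cell death, measured 1.34, 0.473, 1.11, 4.17 and 1.39 CPM in cores, against 13, 8.21, 4.12, 5.82 and 17.4 CPM in rims. The core was lower in 5 of 5 rats, with a log2 difference of -2.68 ± 0.53 (adjusted p 0.00521), and the groups overlapped at their edge. Ifih1, which encodes the long double-stranded RNA sensor MDA5, was lower, with a log2 difference of -0.64 ± 0.13 (adjusted p 0.00603), and Dhx58, a helicase that tunes both sensors, had a difference of -0.79 ± 0.25 (adjusted p 0.0341). Eif2ak2, the double-stranded RNA kinase PKR that halts translation, was the host sensor with the most reads, with 54.3, 74.8, 48.8, 83.3 and 64.7 CPM in cores, against 104, 76.7, 67.3, 99.4 and 117 CPM in rims. Every rat had the lower value in its core, with overlapping groups and with a log2 difference of -0.51 ± 0.14 (adjusted p 0.023). Adar was close in both groups, at 69.2 ± 10.8 CPM in cores and 74.4 ± 13.5 CPM in rims (SD, n = 5 each, adjusted p 0.458).

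The oligoadenylate synthetases make short oligoadenylates that switch on the RNA-degrading enzyme RNase L. Host Oas2 measured 3.04, 2.05, 2.38, 3.24 and 3.15 CPM in cores, against 18.8, 6.04, 7.23, 12.4 and 40.6 CPM in rims. Its cores were even and all below the rims, and it differed by -2.28 ± 0.35 (adjusted p 0.00146). Host Oas1a measured 5.46, 6.46, 3.34, 7.26 and 7.19 CPM in cores, against 19.4, 10.6, 9.46, 16.2 and 36.5 CPM in rims, again without overlap, and differed by -1.51 ± 0.26 (adjusted p 0.00248). Oasl2, the synthetase with the most reads, measured 68.6, 54, 26.6, 49 and 60.7 CPM in cores, against 97.7, 57.9, 48.9, 67.2 and 91.2 CPM in rims, and its groups overlapped (difference -0.51 ± 0.12, adjusted p 0.0114). Host Oas3 was just inside the threshold, with -1.51 ± 0.51 and an adjusted p of 0.0483, and it is the member with the highest estimated share of wrongly assigned reads in cores. Its call was lost under 8 alternatives, among them each that left out 1 rat, with an adjusted p of up to 0.19.

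The largest host differences were among the antiviral effectors. Rsad2 encodes viperin, an enzyme that makes a chain-ending nucleotide. Host Rsad2 measured 2.55, 1.10, 1.11, 1.39 and 4.67 CPM in cores, against 25.3, 18.7, 6.34, 19.9 and 32.6 CPM in rims, with no overlap. It was 9.91-fold lower, a log2 difference of -3.31 ± 0.29 (adjusted p 0.000142). Cmpk2, the mitochondrial nucleotide kinase encoded beside Rsad2 in the mouse, measured 1.58, 1.73, 1.11, 2.01 and 3.41 CPM in host cores, against 21.4, 13.4, 7.46, 13.1 and 32.8 CPM in rims. Every core was below every rim, with a log2 difference of -3.09 ± 0.26 or 8.49-fold (adjusted p 0.00011). These host core values rest on 3 to 13 reads per library for Cmpk2. Host Rsad2 was similarly low in cores, with the same 1.11 CPM in the core of Rat3875. The sizes of both differences are therefore imprecise.

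Mx2, a dynamin-like GTPase, was the host effector with the most reads. It measured 26.6, 26.9, 13.2, 58.9 and 35.9 CPM in cores, against 218, 184, 79.3, 151 and 457 CPM in rims. The rim of Rat3877 was again the highest library and no core reached a rim. The difference was -2.68 ± 0.27 (adjusted p 0.000244), and that of Mx1, its relative, was -1.86 ± 0.42 (adjusted p 0.00886). Rtp4, a receptor chaperone that also restricts viruses, was lower, with a log2 difference of -1.91 ± 0.33 (adjusted p 0.00273) and Xaf1, a pro-apoptotic partner of XIAP, had a difference of -1.23 ± 0.22 (adjusted p 0.00325). Bst2, the membrane tether of budding virus, was not called (-0.01 ± 0.18, adjusted p 0.973), nor was the exonuclease gene Isg20 (0.31 ± 0.45, adjusted p 0.624).

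The 3 Ifit genes, whose products bind foreign RNA, split in the host. Ifit2 measured 45.8, 41.4, 23.1, 36.3 and 42.8 CPM in cores, against 97.1, 93.9, 55.8, 86.3 and 125 CPM in rims. Every core was lower, with a log2 difference of -1.27 ± 0.10, and had the smallest adjusted p of all members, 9.79e-05. Ifit3 measured 168, 87.1, 30.7, 40.01 and 125 CPM in cores, against 55.7, 40.3, 22.6, 26.5 and 71.5 CPM in rims. It was higher in the core of 5 of 5 rats although the groups overlapped, with a log2 difference of 0.91 ± 0.16 (adjusted p 0.00347), and without the rat as a block its adjusted p was 0.145. Ifit1 measured 8.62, 4.88, 0.795, 3.24 and 7.95 CPM in cores, against 1.31, 1.68, 1.0, 1.14 and 1.07 CPM in rims. It was higher in 4 of 5 rats, with a log2 difference of 1.66 ± 0.51 (adjusted p 0.0339), on 2 to 35 reads in cores and 4 to 10 reads in rims, and its adjusted p reached 0.221 when 1 rat or a pair of rats was left out. Both were singled out after their values were seen, as the only members called higher.

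Most neutrophil markers tested moved in the same direction as these 2 genes. So did 5 of 10 macrophage and monocyte markers, while 4 of those were lower in cores. Of 5 host neutrophil markers tested, 4 were higher in cores, and the summed level of all 8 listed markers was 172 to 1207 CPM in cores and 127 to 176 CPM in rims. Host S100a8, a calcium-binding protein of neutrophils, measured 331, 249.7, 42.8, 62.9 and 117 CPM in cores, against 22.9, 39.5, 28.8, 41.6 and 34 CPM in rims, and was highest in the cores of Rat3867 and Rat3869. Among cores, Ifit1 and Ifit3 were highest in Rat3867 and Rat3877. The part of neutrophils or macrophages in the Ifit1 and Ifit3 results was not tested.

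**Figure D2:**
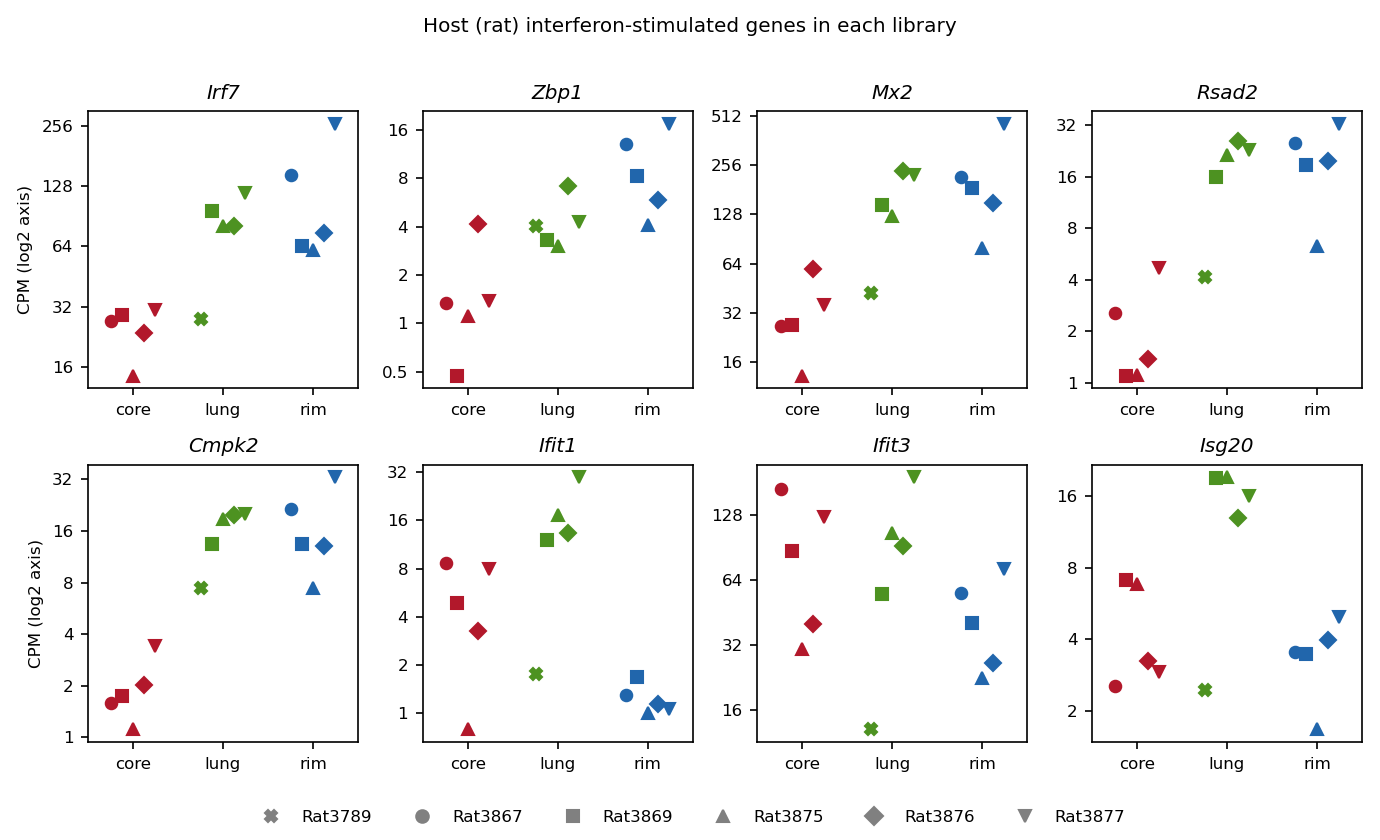
Deposited CPM of 8 host interferon-stimulated genes (log2 axis) in each core, lung and rim library, 1 symbol per rat. Cores lie below rims for Irf7, Mx2, Rsad2 and Cmpk2, while core values of Ifit3 spread above the rims and the library labelled lung of Rat3789 is the lowest lung for Irf7, Rsad2, Isg20 and Ifit1.

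In the ISG15, ubiquitin and ADP-ribose systems, the host counterparts of the mouse Parp cluster were all lower. Parp9, a subunit of the Dtx3l ubiquitin ligase, measured 58.6, 49.3, 47.9, 58.9 and 64.4 CPM in cores, against 122, 67.6, 86.7, 118 and 127 CPM in rims. Dtx3l itself measured 9.59, 10.6, 11.3, 10.04 and 11.7 CPM in cores, against 26.7, 17.5, 18.1, 23 and 27.4 CPM in rims. Neither gene had a core as high as a rim, and they differed by -0.87 ± 0.11 (adjusted p 0.000589) and -1.06 ± 0.17 (adjusted p 0.00201). Parp14, a mono-ADP-ribosyltransferase, was lower, with a log2 difference of -0.73 ± 0.13 (adjusted p 0.0028). Isg15, the ubiquitin-like modifier that gives the system its name, averaged 18.2 ± 7.0 CPM in cores and 45.9 ± 26.7 CPM in rims (SD, n = 5 each) and differed by -1.23 ± 0.26 (adjusted p 0.00737). Usp18, which removes ISG15 and dampens the receptor, and the ubiquitin ligases Trim25 and Trim21 were not called, with differences of -0.57 ± 0.31, 0.01 ± 0.11 and -0.30 ± 0.15.

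Of the GTPases that attack the vacuoles of intracellular pathogens, host Gbp2 measured 43.3, 33.6, 18, 42.8 and 51.1 CPM in cores, against 95.3, 45, 43.1, 77.3 and 105 CPM in rims. Each of the 5 rats had the lower value in its core, though groups overlapped, with a log2 difference of -0.94 ± 0.13 (adjusted p 0.00105). Igtp was lower, with a log2 difference of -0.98 ± 0.20 (adjusted p 0.00621) and Gbp5 differed by -0.69 ± 0.18 (adjusted p 0.0172). Ifi47, the GTPase gene with the most reads, was not called. It measured 86.8, 78.3, 73.9, 115 and 73.5 CPM in cores, against 138, 82.6, 84.7, 111 and 125 CPM in rims, a difference of -0.33 ± 0.14 with an adjusted p of 0.0879. Among the further Ifi genes, Ifi27, a small mitochondrial and membrane protein, measured 179, 222, 172, 191 and 204 CPM in cores, against 497, 316, 358, 475 and 555 CPM in rims. Its cores were even and all below the rims, with a log2 difference of -1.16 ± 0.14 (adjusted p 0.000563). Ifi44 was lower, with a log2 difference of -0.96 ± 0.22 (adjusted p 0.0103) and Ifi35 was not called.

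Host cell markers changed between the same libraries. All 6 fibroblast markers tested were lower in cores, with summed levels of 2353 to 7693 CPM in cores and 17067 to 34796 CPM in rims. Of 10 macrophage and monocyte markers, 5 were higher (Cd68, Csf1r, C1qb, Fcgr1a and Cd14) and 4 lower (Adgre1, Cd163, Mrc1 and Ms4a7), with sums of 6199 to 8635 CPM in cores and 6381 to 10326 CPM in rims. Endothelial markers were lower in 3 of 5, dendritic cell markers in 1 of 5, and among T, B and NK markers 3 of the 10 listed could be tested, of which Cd8a was lower. The part of these cells in the member results was not tested, and in bulk tissue fewer cells of a type and less RNA per cell cannot be told apart. The rims of Rat3876 and Rat3877 held more host adipocyte RNA (Adipoq 117 and 32.6 CPM, against 2.34 to 5.94 CPM in the other rims). Without both rats, 16 members were lower and 1 higher. Calls over all rat genes were then 3351, against 5092 with all rats, and why the counts fell was not tested. Under each of 15 alternatives that tested them (all but the filter of 5 CPM for Zbp1), 16 host members remained called: Irf7, Ddx58, Zbp1, Oas1a, Oas2, Ifit2, Mx1, Mx2, Rsad2, Cmpk2, Rtp4, Dtx3l, Parp9, Parp14, Gbp2 and Ifi27.

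In 4T1 cells fewer members were called, and all of them were lower in cores. Of 38 mouse members tested, 10 were lower in cores, 0 were higher and 28 did not pass, among 13070 mouse genes of which 9.63% were lower and 10.1% higher. The count of 0 higher was also 0 with edgeR and with DESeq2, and 14 members had an unadjusted p under 0.05 in either direction. The median member difference was -0.37, where the median of all mouse genes was 0.01, and 32 of 38 estimates were below 0. Either direction together, 19.8% of all mouse genes were called. In 5 members all cores lay below all rims, against 7.25% of all mouse genes, and in 0 members all cores lay above all rims, against 7.08%. Mx1 and Gbp5 were too low to be tested, at 0.0218 to 0.589 CPM in cores and 0.254 to 1.33 CPM in rims for Mx1 and 0.283 to 0.989 CPM in cores and 0.424 to 0.823 CPM in rims for Gbp5.

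The effectors Samd9l and Cmpk2 and the ADP-ribosylation gene Parp14 held the smallest adjusted p values in 4T1 cells. Samd9l, an effector that arrests translation and was followed in mouse alone, measured 22.3, 18.7, 33.3, 40.7 and 20.6 CPM in cores, against 59.5, 46.9, 52.2, 63.4 and 46.4 CPM in rims. No core reached a rim, and the difference was -1.04 ± 0.15, or 2.06-fold lower (adjusted p 0.00318). Parp14 measured 32.5, 24.3, 25.1, 43.6 and 31.4 CPM in cores, against 66.1, 46.6, 37.3, 64 and 52.3 CPM in rims, and was lower in 5 of 5 rats, with a log2 difference of -0.76 ± 0.11 (adjusted p 0.00355). The core of Rat3876 lay above the rim of Rat3875, so the groups overlapped. Cmpk2 measured 0.941, 0.674, 1.25, 0.916 and 0.639 CPM in cores, against 2.87, 1.32, 2.36, 4.05 and 3.92 CPM in rims. All its cores were lower, with a log2 difference of -1.65 ± 0.32 (adjusted p 0.00952), on 13 to 24 reads in cores and 28 to 78 reads in rims. Its neighbour Rsad2 ranged over 0.26 to 2.07 CPM in cores and 0.762 to 2.27 CPM in rims and was not called (-1.13 ± 0.55, adjusted p 0.183). Parp9 measured 40.7, 34.4, 40.5, 50.3 and 46.6 CPM in cores, against 62.5, 52.5, 44.3, 76.4 and 48.5 CPM in rims, and sat at the threshold (-0.40 ± 0.12, adjusted p 0.0495).

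Of the 6 sensors, 3 were lower in 4T1 cores. Ddx58 measured 28.6, 19.1, 24.5, 31 and 30.8 CPM in cores, against 43.5, 25.5, 31.9, 45.6 and 47.1 CPM in rims. Cores were lower in 5 of 5 rats with overlapping groups, with a log2 difference of -0.51 ± 0.10 (adjusted p 0.01). Eif2ak2 measured 32.1, 40.4, 48.8, 55.9 and 38.7 CPM in cores, against 74.4, 65.9, 62.6, 66.7 and 63.6 CPM in rims. All its cores lay below all rims, with a log2 difference of -0.65 ± 0.14 (adjusted p 0.0155). Ifih1 measured 12.2, 14.1, 12.8, 17 and 15.5 CPM in cores, against 29.6, 23.2, 28, 19.4 and 22.6 CPM in rims, without overlap and with a log2 difference of -0.77 ± 0.17 (adjusted p 0.0166). Adar, the gene of this role with the most reads, was not called, at 87.2, 56.6, 78.3, 74.8 and 68.6 CPM in cores, against 90.3, 83.2, 65.4, 70.2 and 70.8 CPM in rims (-0.06 ± 0.12, adjusted p 0.766). Zbp1 measured 9.87, 7.46, 6.01, 8.0 and 11 CPM in 4T1 cores, against 12.1, 8.01, 5.83, 8.36 and 5.36 CPM in rims, and was not called either (0.12 ± 0.21, adjusted p 0.719).

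Each remaining role had at most 1 member lower in 4T1 cores. Irf7 measured 5.24, 2.33, 8.16, 5.87 and 4.66 CPM in cores, against 12.7, 8.06, 6.93, 9.77 and 12 CPM in rims. It was lower in 4 of 5 rats, with a log2 difference of -0.99 ± 0.28 (adjusted p 0.0371), with Rat3875 as the exception. Irf1, the factor with the most reads, measured 78.6, 63.1, 36.9, 61.4 and 71.5 CPM in cores, against 82.1, 73.9, 54.5, 66 and 59.3 CPM in rims, and was not called (adjusted p 0.469). Among the synthetases, Oas1a measured 6.63, 2.81, 7.24, 8.0 and 6.41 CPM in cores, against 13.3, 6.95, 7.93, 11.2 and 13.5 CPM in rims. The core was lower in 5 of 5 ratswith a log2 difference of -0.80 ± 0.20 (adjusted p 0.0254), with the core of Rat3869 far below the other cores. Oasl2, the synthetase with the most reads, was not called, at 27.4, 20.1, 31.9, 29.4 and 34.6 CPM in cores, against 66.1, 33.9, 27.3, 41.1 and 34.3 CPM in rims (-0.45 ± 0.20). Gbp2, the GTPase gene with the most reads, measured 30.6, 21.6, 20.2, 28 and 31.7 CPM in cores, against 46, 44.3, 33.2, 37.1 and 35.6 CPM in rims. Its cores stayed below all rims, with a log2 difference of -0.58 ± 0.14 (adjusted p 0.02).

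In the other roles, the 4T1 members with the most reads did not pass between core and rim. Trim25, the ubiquitin ligase that activates RIG-I, measured 108, 95.7, 99.2, 102 and 106 CPM in cores, against 135, 107, 96.6, 109 and 106 CPM in rims (difference -0.11 ± 0.09, adjusted p 0.417). Bst2 measured 51.2, 72.3, 62, 53.2 and 60.2 CPM in cores, against 74.7, 50.6, 47.1, 59 and 53.9 CPM in rims (difference 0.08 ± 0.16, adjusted p 0.767). Ifi27 measured 110.4, 94.3, 112, 137 and 136 CPM in cores, against 126, 95.3, 79.1, 112 and 119 CPM in rims (difference 0.16 ± 0.11, adjusted p 0.364). All 3 had core values that interleaved with those of the rims. Of the 6 epithelial markers used for 4T1 carcinoma cells, 4 were lower in cores, with sums of 2277 to 3740 CPM in cores and 3996 to 4849 CPM in rims. Of 4 mouse fibroblast markers tested, 3 were higher in cores, with a sum over the listed markers of 106 to 445 CPM in cores and 60.4 to 180 CPM in rims. The part of either list in the 4T1 results was not tested. Mouse neutrophil markers were close to 0, with a sum of at most 2.37 CPM in any core. Under all 15 alternatives Eif2ak2, Samd9l and Parp14 remained called, and without Rat3867, or without Rat3876 and Rat3877, 5 members were lower in place of 10. Calls over all mouse genes were then 1357 and 1832, against 2585 with all rats.

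**Figure D3:**
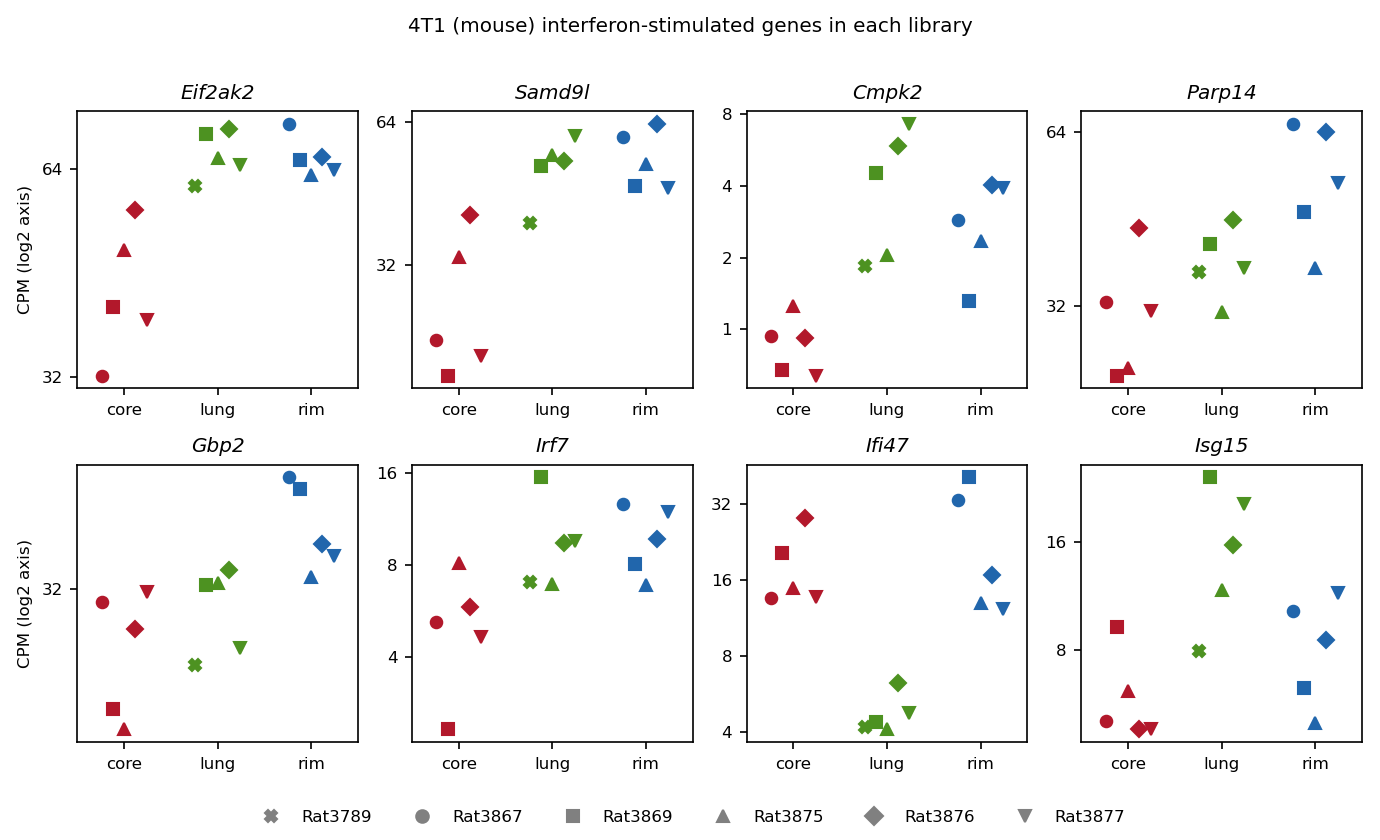
Deposited CPM of 8 4T1 interferon-stimulated genes (log2 axis) in each core, lung and rim library, 1 symbol per rat. Cores of Eif2ak2, Samd9l, Cmpk2 and Gbp2 lie below all rims, and lungs of Ifi47 lie below all rims.

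Tumor cells and host were set against each other by testing the difference of their core-over-rim differences in the same libraries, for the 37 members tested in both species. Of these, 9 were lower in cores in both species, 17 were lower in the host and not called in 4T1 cells, and the 2 higher in the host were not called in 4T1 cells. Taken singly, 20.1% of all rat genes and 9.63% of all mouse genes were lower. Joint calls were not counted over all shared genes, so the joint counts are not read as a trait of the members. The 4T1 difference exceeded the host difference for 14 members and fell below it for 1, where 19.2% and 16.6% of 9759 shared genes did so. The largest excess was that of Zbp1, 2.81 ± 0.59 on the log2 scale (adjusted p 0.00772). Host Zbp1 rests on 1 to 13 reads per core and 18 to 89 per rim, so this size is imprecise: it was 2.34 without Rat3877 and 3.40 without Rat3876. Rsad2 (2.18 ± 0.67, adjusted p 0.0355) and Mx2 (2.17 ± 0.49, adjusted p 0.0102) followed. Ifit2 had the smallest adjusted p, 0.000581, with 1.53 ± 0.18: its 4T1 values were 17.8, 16.7, 21.3, 19.9 and 20.6 CPM in cores, against 12.8, 14.8, 25.7, 15.1 and 14.3 CPM in rims, a difference of 0.26 ± 0.15 where the host had -1.27 ± 0.10. The single member with the opposite sign was Ifit1 (-2.07 ± 0.70, adjusted p 0.049).

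Further members separated the compartments by smaller amounts. Ifi27 differed by 1.32 ± 0.17 (adjusted p 0.000927), Igtp by 1.01 ± 0.19 (adjusted p 0.00488) and Xaf1 by 1.20 ± 0.23 (adjusted p 0.00506). In 4T1 cells Igtp measured 11.6, 13.6, 9.54, 10.3 and 10.6 CPM in cores, against 13.3, 10.8, 7.17, 11.5 and 12.8 CPM in rims. Host Igtp measured 27.3, 22.8, 18, 21.8 and 20.3 CPM in cores, against 52.4, 26.8, 30.2, 51.5 and 68.8 CPM in rims. The host libraries thus separated within each rat while the 4T1 libraries interleaved. Xaf1 had 13.1, 12.8, 14.5, 11.1 and 13.9 CPM in 4T1 cores, against 17.7, 13.3, 11, 12.5 and 13.1 CPM in 4T1 rims, and host Xaf1 had 8.62, 3.62, 6.84, 6.02 and 7.69 CPM in cores, against 20.4, 8.41, 9.68, 16.3 and 26.2 CPM in rims. The host core lay under its own rim in 5 of 5 rats.

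For Rtp4 the excess was 1.60 ± 0.43 (adjusted p 0.0216). In 4T1 cells it measured 8.03, 8.46, 9.34, 8.15 and 8.02 CPM in cores, against 12.3, 9.95, 6.79, 15 and 9.75 CPM in rims. In the host it measured 6.44, 13.4, 3.34, 12.5 and 8.95 CPM in cores, against 38.4, 20.1, 22.1, 28.1 and 50.7 CPM in rims, and the host groups did not overlap. The excess of Dtx3l was 0.81 ± 0.18 (adjusted p 0.0085), with 48.5, 39.1, 41.1, 53.2 and 47.5 CPM in 4T1 cores, against 66, 50.8, 40.7, 76.6 and 44.6 CPM in 4T1 rims. Mx2 was low in 4T1 cells, at 1.62, 0.892, 2.12, 1.02 and 0.733 CPM in cores, against 1.82, 0.854, 1.17, 3.03 and 2.47 CPM in rims, and these groups overlapped. The mouse annotation lists Mx2 as a polymorphic pseudogene. For Irf9 the excess was 0.71 ± 0.20 (adjusted p 0.0257). It measured 35, 29.6, 31.6, 33.7 and 31.4 CPM in 4T1 cores, against 38.9, 30.8, 20.3, 30.3 and 30.01 CPM in 4T1 rims. Host Irf9 measured 53.1, 50.3, 41.8, 37.8 and 42.5 CPM in cores, against 76, 51.6, 62.4, 61.4 and 88.9 CPM in rims, lower in 5 of 5 rats. Host Irf1, whose excess was 0.60 ± 0.18 (adjusted p 0.0298), measured 35.1, 31.7, 18.6, 25.8 and 30.6 CPM in cores, against 60.1, 36.3, 34.8, 55.7 and 49.4 CPM in rims. Isg15, Ddx58 and Cmpk2 made up the rest, with excesses of 0.78 ± 0.24, 0.53 ± 0.16 and 1.44 ± 0.44. Ddx58 and Cmpk2 were lower in both compartments and less so in 4T1 cells. Under each of 9 alternatives that tested them, Zbp1, Ifit2, Mx2, Xaf1, Dtx3l, Igtp and Ifi27 remained called, where the filter of 5 CPM left Zbp1 and Mx2 untested.

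The other genes of the pathway went in both directions. Of 55 pathway genes listed, 41 were tested in the host, of which 10 were higher in cores and 5 lower. Over all rat genes tested, 17.5% were higher and 20.1% lower. The receptor subunit Ifngr2 for interferon gamma measured 143, 167, 135, 162 and 152 CPM in cores, against 98.6, 105, 94.5, 99 and 102 CPM in rims, and was higher, with a log2 difference of 0.60 ± 0.08 (adjusted p 0.000719). Ifnlr1, the receptor subunit for lambda interferons, was lower, with a log2 difference of -2.03 ± 0.25, and the kinase Jak2 had -1.18 ± 0.14 (adjusted p 0.000571 and 0.000444). The chemokine Cxcl10, itself interferon-induced, measured 4.49, 3.31, 1.11, 3.86 and 5.17 CPM in cores, against 20.8, 18.3, 5.23, 16.7 and 29.9 CPM in rims, and was lower, with a log2 difference of -2.31 ± 0.20 (adjusted p 0.000124). The other host genes called higher included Sting1, Tbk1, Ikbke and Irf5 of the list of sensing and adaptor genes. The rest were the negative regulators Irf2, Ptpn6 and Pias1 and the immunoproteasome subunits Psmb8 and Psmb10. Cxcl11 was lower.

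In 4T1 cells 36 pathway genes were tested, of which 6 were higher in cores (Ifnar2, Ifngr1, Irf2, Pias1, Nlrc5 and B2m) and 1 lower (Psmb10). Over all mouse genes tested, 10.1% were higher and 9.63% lower. Ifngr1, the ligand-binding receptor subunit for interferon gamma, was higher, with a log2 difference of 0.59 ± 0.11 (adjusted p 0.00857). Of the 10 interferon genes listed, Ifne alone was found in the tables, in mouse, at 0.402 to 1.41 CPM in cores, 0.0228 to 0.269 CPM in lungs and 0.175 to 0.346 CPM in rims, too low to test.

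Averaged over members, the level of the set differed between rats as well as between regions. The mean log2 CPM over the 39 host members was 4.26 ± 0.28 in cores, 5.40 ± 0.38 in lungs and 5.22 ± 0.52 in rims (SD, n = 5 each). Over the 38 mouse members it was 3.64 ± 0.15 in cores, 4.00 ± 0.32 in lungs and 4.06 ± 0.27 in rims. The host core mean lay below the rim mean in 5 of 5 rats, by -1.18 (Rat3867), -0.61 (Rat3869), -0.82 (Rat3875), -0.75 (Rat3876) and -1.42 (Rat3877). In 4T1 cells the same differences were -0.78, -0.39, 0.10, -0.48 and -0.55, so Rat3875 alone had no lower core. Within the rims, the library of Rat3877 was the highest for 32 of 39 host members and that of Rat3875 the lowest for 23. Among 4T1 rims, Rat3867 was the highest for 19 of 38 members and Rat3875 again the lowest for 23. These means and counts describe the set and were not tested. How often each library was the highest or lowest over all genes was not counted, so the counts are not read as particular to the members.

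**Figure D4:**
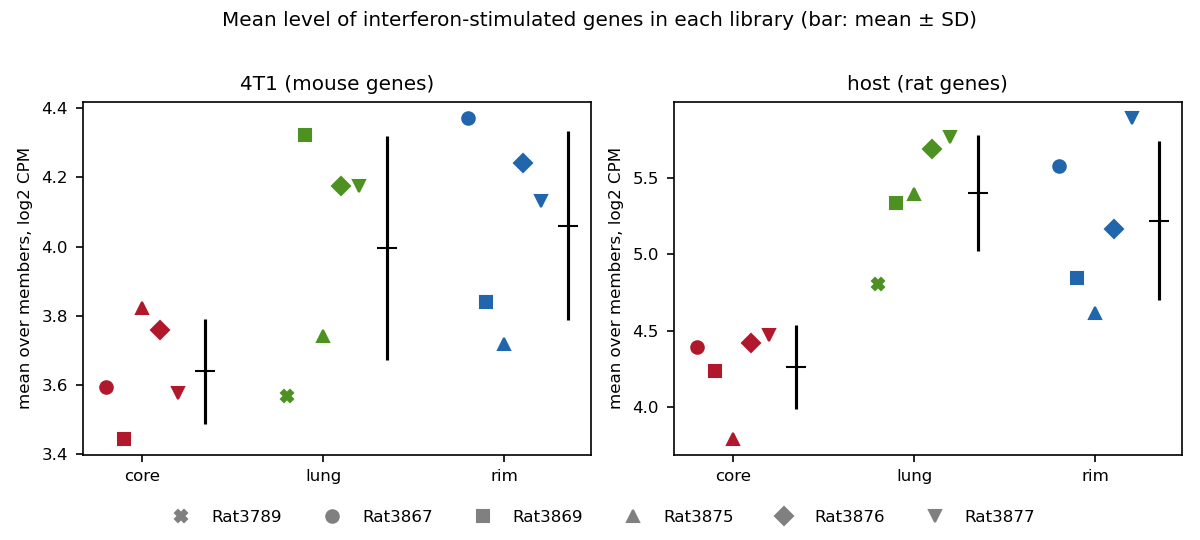
Mean log2 CPM over the tested members in each core, lung and rim library, 1 symbol per rat, for 4T1 cells (left, 38 genes) and host (right, 39 genes), with the group mean ± SD as a bar. Host cores average 4.26 and host rims 5.22, and the library labelled lung of Rat3789 is the lowest lung in both panels.

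Between lung and rim the 4T1 members differed little as a set. Of 38 members tested, 1 was higher in lungs and 5 lower, among 12970 mouse genes of which 9.91% were higher and 10.2% lower (limma, 5 lungs against 5 rims without a block), and the member median was -0.06. In 2 members (Ifi47 and Parp9) all lungs lay below all rims, against 6.75% of all mouse genes, and in 0 members above, against 6.7%. Ifi47 showed the one large difference. In lungs of Rat3869, Rat3875, Rat3876 and Rat3877, the order used for lungs throughout, 4T1 Ifi47 measured 4.39, 4.10, 6.26 and 4.77 CPM and in the library labelled lung of Rat3789 4.18 CPM, against 33.2, 40.6, 12.9, 16.7 and 12.2 CPM in rims. The lungs were even and all below the rims, a log2 difference of -2.13 ± 0.32 or 4.36-fold (adjusted p 0.00139). Ifi47 in cores, at 13.5, 20.4, 14.8, 28 and 13.7 CPM, was not called against rims (-0.24 ± 0.28, adjusted p 0.598). In the mouse annotation Ifi47 overlaps Olfr56 on the same strand, so reads of these genes could be shared.

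The other 4T1 calls in the lung were smaller. Parp9 measured 41.7, 38.5, 43.9 and 35.6 CPM in lungs and 38.7 CPM in the library labelled lung of Rat3789, against 62.5, 52.5, 44.3, 76.4 and 48.5 CPM in rims. No lung reached a rim, and the difference was -0.49 ± 0.14 (adjusted p 0.026). Zbp1 measured 6.17, 1.92, 4.07 and 3.05 CPM in lungs and 3.99 CPM in the library labelled lung of Rat3789, against 12.1, 8.01, 5.83, 8.36 and 5.36 CPM in rims, with overlap (-1.09 ± 0.31, adjusted p 0.0282). Ifi35, the only member higher in lungs, measured 32.4, 30.3, 32.6 and 29.8 CPM in lungs and 25.2 CPM in the library labelled lung of Rat3789, against 25.2, 22.1, 20.1, 25.9 and 22 CPM in rims (0.38 ± 0.11, adjusted p 0.0257). Dtx3l, which overlaps Parp9, was lower, with a log2 difference of -0.55 ± 0.18 (adjusted p 0.0485). It measured 33.8, 30.7, 45.6 and 34.2 CPM in lungs and 43.5 CPM in the library labelled lung of Rat3789, against 66, 50.8, 40.7, 76.6 and 44.6 CPM in rims. Gbp2 measured 32.4, 32.6, 34 and 26.4 CPM in lungs and 24.9 CPM in the library labelled lung of Rat3789, against the rim values given above (-0.38 ± 0.12, adjusted p 0.0476).

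Without the library labelled lung of Rat3789, 5 4T1 members were higher in lungs and 4 lower, among genes of which 10.8% were higher and 11.1% lower. The added ones were Isg15 (1.13 ± 0.28, adjusted p 0.016), Rsad2 (1.28 ± 0.34, 0.0227), Mx2 (1.36 ± 0.43, 0.0422) and Ifit1 (0.91 ± 0.25, 0.0246), each with its log2 difference and adjusted p, while Gbp2 was lost. Over the 4 rats that gave both a lung and a rim, with the rat as a block, 5 members were higher and 5 lower, against 9.06% and 9.72% of all mouse genes. The same 8 libraries without the block, a setting chosen after seeing the data, gave 4 higher and 1 lower, against 7.18% and 8.16%. Of the 6 calls made with all 5 lungs, Ifi47 alone remained called under all 20 alternatives. Without the library labelled lung of Rat3789, all lungs lay above all rims for 3 members (Isg15, Rsad2 and Ifi35) and below them for 2, against 9.78% and 10.1% of all mouse genes. Without a call when all 5 lungs were used, 4T1 Isg15 measured 24.2, 11.8, 15.6 and 20.4 CPM in lungs and 7.91 CPM in the library labelled lung of Rat3789, against 10.3, 6.26, 4.98, 8.53 and 11.6 CPM in rims. That library was the lowest lung for 22 of 38 4T1 members, a share not counted over all mouse genes. All 5 carcinoma markers tested in mouse were lower in lungs, with and without it, with sums of 1875 to 2817 CPM in lungs (1875 to 2635 CPM without it) and 3996 to 4849 CPM in rims. Of 4 mouse fibroblast markers tested, 1 was higher in lungs and 0 lower (1 and 1 without that library). The part of these markers in the 4T1 results was not tested.

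In the host, few members passed between lung and rim. Of 39 members tested, 2 were higher in lungs and 0 lower, among 13841 rat genes of which 10.5% were higher and 11.6% lower. With edgeR the count of lower members was 0 and with DESeq2 1, and 8 members had an unadjusted p under 0.05 in either direction. Ifit1 measured 12, 17.2, 13.4 and 29.6 CPM in lungs and 1.76 CPM in the library labelled lung of Rat3789, against 1.31, 1.68, 1.0, 1.14 and 1.07 CPM in rims. Every lung lay above every rim, which held for 1 member and for 6.1% of all rat genes, while all lungs lay below all rims for 0 members and 8.57% of all rat genes. The Rat3789 library was above them only just, and the difference was 3.14 ± 0.63 (adjusted p 0.00545). Isg20 measured 19.2, 19.2, 13 and 16 CPM in lungs and 2.45 CPM in the library labelled lung of Rat3789, against 3.52, 3.46, 1.67, 3.97 and 4.96 CPM in rims. The 4 other lungs were above all rims and that library was within them, for a difference of 1.77 ± 0.55 (adjusted p 0.0417). Without it, Ifit1 differed by 3.80 ± 0.30 (adjusted p 8.07e-06) and Isg20 by 2.32 ± 0.30 (adjusted p 0.000195). Ifit3 (1.35 ± 0.40, adjusted p 0.0252) and Irf1 (0.66 ± 0.20, adjusted p 0.0323) were then called higher too, so 4 members were higher and 0 lower, against 15.4% and 14.3% of all rat genes. With the rat as a block over the 4 rats that gave both tissues, 9 members were higher and 0 lower, against 13.6% and 12.8% of all rat genes, and without the block in the same libraries 4 were higher and 0 lower, against 14% and 12.9%. Without the library labelled lung of Rat3789, all lungs lay above all rims for 2 members (Ifit1 and Isg20) and below them for 0, against 13.9% and 12.5% of all rat genes. Ifit1 remained called under 19 alternatives and could not be tested under the filter of 5 CPM, while Isg20 missed the threshold when any 1 of the other 4 lungs, or any rim but that of Rat3877, was left out (adjusted p of up to 0.1).

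Several host members that were low in cores were not called in lungs against rims. Host Irf7 measured 96.6, 81, 80.4 and 118 CPM in lungs and 27.8 CPM in the library labelled lung of Rat3789, with a difference of -0.49 ± 0.47 from rims (adjusted p 0.506). Host Mx2 measured 147, 124, 236 and 221 CPM in lungs and 42.1 CPM in that library (-0.49 ± 0.53, adjusted p 0.55). Host Rsad2 measured 15.9, 21.6, 25.8 and 22.9 CPM in lungs and 4.15 CPM in that library (-0.24 ± 0.55, adjusted p 0.796). For all 3 the library labelled lung of Rat3789 was the lowest lung, as it was for 22 of 39 host members. How often it was the lowest over all rat genes was not counted. Both comparisons use the same rims, so no likeness between their calls is read from these values.

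**Figure D5:**
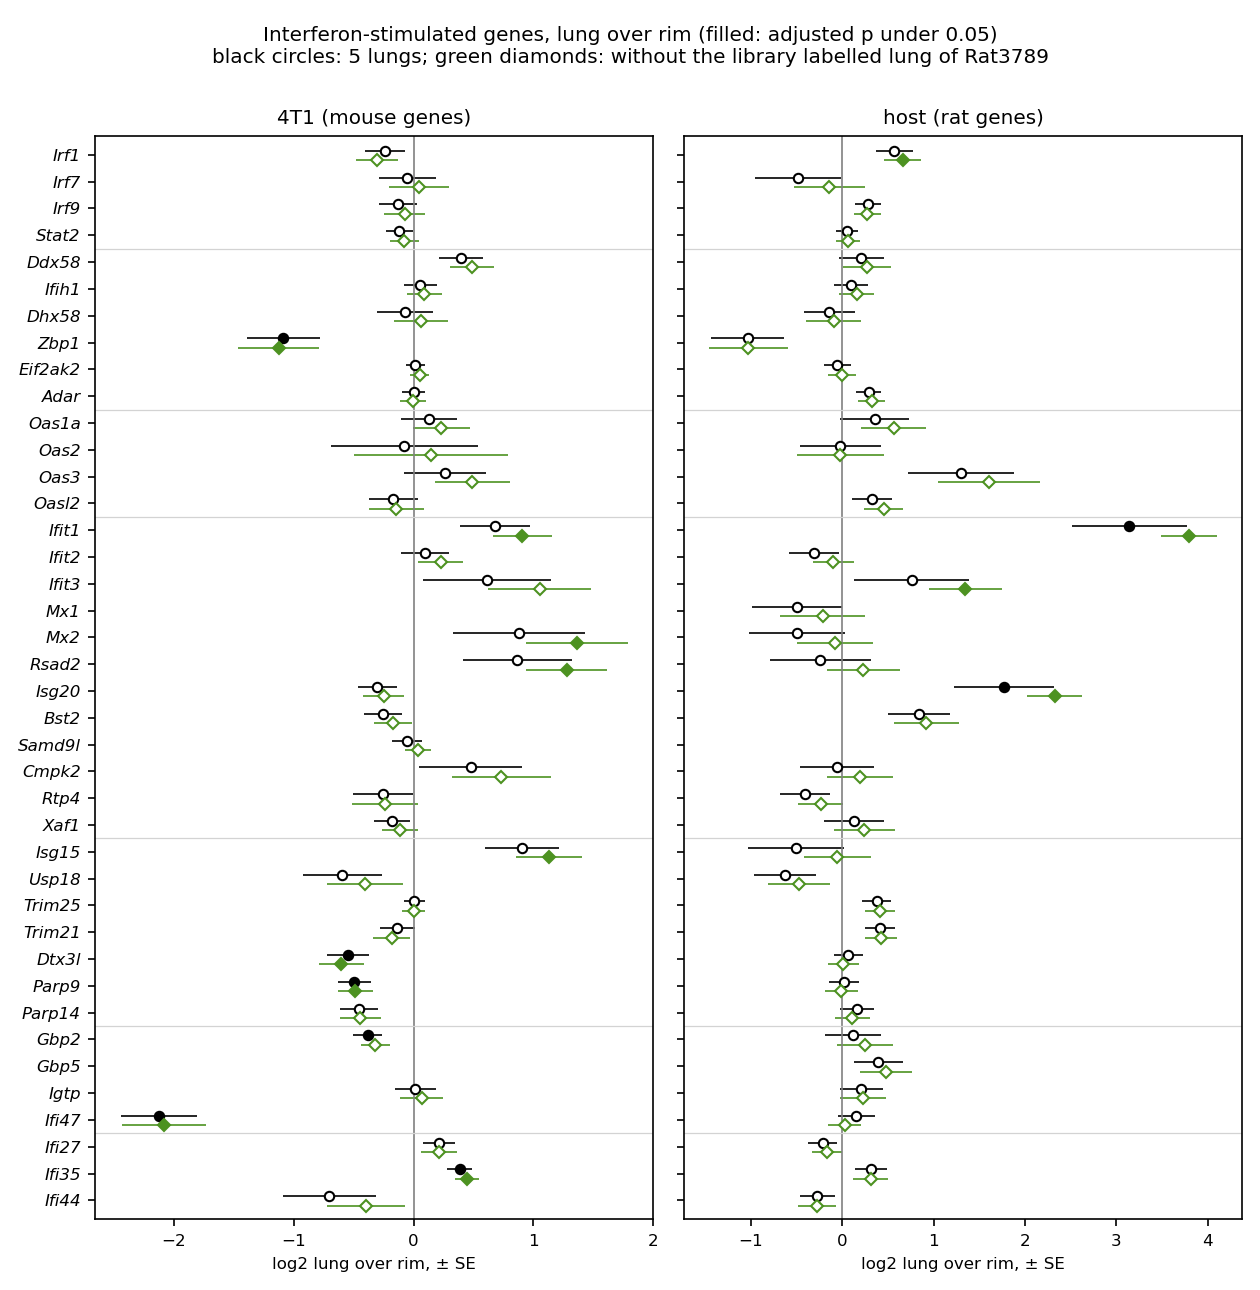
Log2 difference of each interferon-stimulated gene, lung over rim (x axis), in 4T1 cells (left) and host (right), with standard errors as bars and filled symbols where the adjusted p was under 0.05; black circles use all 5 lungs and green diamonds leave out the library labelled lung of Rat3789. 4T1 Ifi47 stands far left, host Ifit1 and Isg20 far right, and leaving out that library moves host Ifit3, Ifit1 and Isg20 further right.

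Host cell markers differed between the same lungs and rims. All 7 neutrophil markers tested were higher in lungs, with summed levels of 416 to 5461 CPM in lungs (2258 to 5461 CPM without the library labelled lung of Rat3789) and 127 to 176 CPM in rims. All 6 fibroblast markers tested were lower and all 6 lung epithelium markers higher, and these 3 counts were the same without that library. S100a8 measured 783, 835, 733 and 1874 CPM in lungs and 114 CPM in that library. The part of these cells in the higher Ifit1 and Isg20 was not tested. Among pathway genes in the lung, 3 of 37 mouse genes were higher (Cgas, Myd88 and Socs1) and 3 lower (Ifnlr1, Jak2 and Sting1), and 6 of 41 rat genes were higher and 3 lower. Over all genes tested, 9.91% of mouse genes were higher and 10.2% lower, as were 10.5% and 11.6% of rat genes. Without the library labelled lung of Rat3789, 4 mouse pathway genes were higher (Cgas, Myd88, Socs1 and Cxcl10) and 1 lower (B2m), and 6 rat genes were higher and 4 lower. The shares over all genes were then 10.8% higher and 11.1% lower in mouse, and 15.4% and 14.3% in rat. 4T1 Cgas, the DNA sensor upstream of Sting1, measured 26.7, 30.1, 28.2 and 31.6 CPM in lungs and 27.4 CPM in the library labelled lung of Rat3789, against 14, 17.2, 18.8, 16.2 and 14.9 CPM in rims, with no overlap (0.83 ± 0.10, adjusted p 0.000568).

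Setting 4T1 against host in the lung, 3 of 37 members had a higher 4T1 difference and 7 a lower one, where 11.4% and 10.3% of 9792 shared genes did. Ifi47 differed by -2.28 ± 0.37 (adjusted p 0.00202): the 4T1 gene was low in lungs, while host Ifi47 measured 94.7, 94.5, 141 and 108 CPM in lungs and 169 CPM in the library labelled lung of Rat3789, against 138, 82.6, 84.7, 111 and 125 CPM in rims. Ifit1 (-2.47 ± 0.52, adjusted p 0.0073) and Isg20 (-2.07 ± 0.53, adjusted p 0.0177) had lower 4T1 than host differences, and both were higher in host lungs. In 4T1 cells Ifit1 measured 9.95, 5.90, 8.18 and 8.53 CPM in lungs and 3.59 CPM in the library labelled lung of Rat3789, against 5.91, 3.12, 3.50, 6.03 and 3.62 CPM in rims. 4T1 Isg20 measured 37.4, 24, 19.4 and 26.7 CPM in lungs and 21.7 CPM in that library, against 29.4, 30.6, 37.8, 28.1 and 30.2 CPM in rims. Both 4T1 genes had overlapping lungs and rims.

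Bst2, Irf1, Parp14 and Dtx3l were the other members with a lower 4T1 difference, of -1.10 ± 0.29, -0.81 ± 0.24, -0.62 ± 0.15 and -0.61 ± 0.19. Host Bst2 measured 155, 122, 216 and 224 CPM in lungs and 131 CPM in the library labelled lung of Rat3789, against 111, 50.2, 54, 141 and 155 CPM in rims. 4T1 Bst2 measured 59.998, 37.8, 57.2 and 48 CPM in lungs and 37.4 CPM in that library, against the rim values above. With all libraries and no block neither was called on its own, the host gene with a difference of 0.84 ± 0.34 and the 4T1 gene with -0.26 ± 0.16. With the rat as a block over 4 rats, host Bst2 (adjusted p 0.0112), host Irf1 (0.00268) and 4T1 Parp14 (0.0397) were called, while 4T1 Bst2, 4T1 Irf1 and host Parp14 were not. Without the block in the same 8 libraries host Irf1 was called, and host Bst2 and 4T1 Parp14 were not. Host Irf1 measured 62.8, 56.8, 81.3 and 97.3 CPM in lungs and 53.4 CPM in that library. Irf1 of 4T1 cells measured 53, 42.7, 77.5 and 47.6 CPM in lungs and 67.9 CPM in that library. Against the rim values given above, 3 of 5 host libraries lay above all rims and 3 of 5 4T1 libraries below all rims, and neither gene was called with all libraries and no block. Parp14 measured 40.9, 31.3, 45 and 37.2 CPM in 4T1 lungs and 36.8 CPM in that library, against 66.1, 46.6, 37.3, 64 and 52.3 CPM in rims. Host Parp14 measured 68.6, 77.6, 111 and 86.8 CPM in lungs and 101 CPM in that library, against 102, 61.7, 59.8, 80.2 and 98.6 CPM in rims. In 4T1 cells 3 of 5 of these libraries lay below all rims, the host values interleaved, and neither gene was called with all libraries and no block.

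Isg15 had the largest difference in the other direction (1.41 ± 0.32, adjusted p 0.00993). Host Isg15 measured 34.7, 35.5, 35 and 51.1 CPM in lungs and 7.91 CPM in the library labelled lung of Rat3789, against 74.4, 29.2, 21.5, 28.9 and 75.6 CPM in rims. Mx2 (1.37 ± 0.44) and Ifi27 (0.43 ± 0.13) were called in the same direction, but Mx2 missed the threshold in 7 of 13 alternatives that tested it and Ifi27 in 8 of 14, among them the one without that library. In 4T1 cells Mx2 measured 6.72, 2.42, 3.34 and 6.50 CPM in lungs and 0.813 CPM in that library. Ifi27 measured 144, 99.8, 135 and 113 CPM in 4T1 lungs and 121 CPM in that library, and 444, 365, 343 and 389 CPM in host lungs and 329 CPM in the same library. Without the library labelled lung of Rat3789, 2 members had a higher 4T1 difference and 9 a lower one, against 14.2% and 14.5% of all shared genes. Isg15, Parp14 and Ifi47 remained called under all 14 alternatives, and Ifit1 and Isg20 under the 13 that tested them.

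Against the single-species controls, most members were higher in tumor-bearing tissue. The control tables were deposited as raw counts, so levels here are RPM (reads-per-million of the reads assigned to the same species), and no test was run across the tables. In the 4T1 pellet, which is 1 library, 21 of 40 members lay below the range of the cores, 33 below the range of the lungs and 32 below the range of the rims, by the upper end of the exact 95% Poisson interval, which covers counting error only. Of all mouse genes in the table, 38.4%, 40.5% and 37.8% did. With the library labelled lung of Rat3789 left out, 38 members lay below the range of the lungs, against 44% of all mouse genes. Zbp1 was at 0.441 RPM in the pellet, against 5.64 to 10.7 in cores, 1.99 to 6.35 in lungs and 5.30 to 12 in rims. Oasl2 was at 3.33 RPM in the pellet, against 19.4 to 33.8 in cores, 28.5 to 42.1 in lungs and 26.9 to 65.6 in rims. Ifit2 and Isg20 were above the cores, at 23.7 and 34.4 RPM in the pellet, and Ifit2 lay within the range of the rims. Pellet Ifit2 also exceeded the lungs other than the library labelled lung of Rat3789, which ranged over 17.2 to 21.9 RPM.

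In the host, both gland libraries lay below the range of the cores for 25 of 39 members, of the lungs for 39 of 39 and of the rims for 37 of 39. Of all rat genes in the table, 46.7%, 56.0% and 52.9% did. The count for lungs was again 39 without the library labelled lung of Rat3789, against 64.3% of all rat genes. Host Irf7 ranged over 13.9 to 30.8 RPM in cores, 27.3 to 126 in lungs and 56.3 to 262 in rims, against 5.56 and 15.6 in the 2 glands. Without that lung library the Irf7 lungs ranged over 87.1 to 126 RPM. Host Mx2 ranged over 12.6 to 60.4 RPM in cores, 41.5 to 257 in lungs and 72.6 to 457 in rims, against 3.53 and 8.37 in the glands. Without that library the Mx2 lungs ranged over 134 to 257 RPM. Ifi27 and Cmpk2 were the members with both glands above all cores: Ifi27 was at 227 and 301 RPM in the glands, and in cores 167 to 205. Cmpk2 was at 6.28 and 6.17 RPM in the glands, and in cores 0.924 to 3.28. Host Bst2 and Isg20 were the 2 members whose glands were not both below the rims.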

How the data were processed

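PolyA libraries of 5 cores, 5 lungs, 5 rims, 2 glands and 1 pellet were used. Per the submitters' processing notes, Trim Galore, STAR, featureCounts and limma were used with GRCm38 and Rnor_6.0. Not given in the sources used here are software versions, the tool for sorting reads by species and the strand setting. For tumor and lung libraries, the authors deposited a normalized signal per gene. Within 0.01 reads, every value is its library's constant multiplied by the sum of 0.5 and a whole read number, and it is read here as CPM. The mouse and rat tables were scaled separately, and their levels are not compared. For the controls, the authors deposited raw read counts, which were divided by all reads of their species; 2 rat genes have no symbol.

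The members and all gene lists were chosen with earlier results of these data known. Limma 3.58.1 (trend, R 4.3.3) was fitted to log2 deposited values without a further pseudocount, and tests were two-sided. Genes needed 1 CPM or more in 5 or more compared libraries. P-values were adjusted by Benjamini-Hochberg over all genes tested and called under 0.05. The 0.5 reads in each value understate fold changes of genes with few reads. Core and rim were fitted with the rat as a block, since the labels name the animal of each library. Deviations of the same rat correlated at -0.18 to 0.24 over mouse genes and 0.03 to 0.34 over rat genes. Those of different rats correlated at -0.28 to 0.30 over mouse genes and -0.32 to 0.18 over rat genes. Lung and rim were fitted without a block, although most lungs share a rat with a rim. Between these, same-rat deviations correlated at 0.05 to 0.30 over mouse genes and -0.08 to 0.25 over rat genes. Different-rat deviations correlated at -0.23 to 0.20 over mouse genes and -0.23 to 0.26 over rat genes. The 4T1-minus-host fits used differences of log2 values for genes that share a symbol. The rat is the replicate, so p-values measure the spread between these animals. No 2 replicates were alike within sampling noise (chi-square over its degrees of freedom of 5.39 or more). Intervals (95%) cover counting error only and come from scipy 1.17.1. Mouse positions are from the GENCODE annotation of GRCm38, and rat positions are not used here.

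All 40 members could be named. Values in every library are printed for up to 12 called members in a comparison, by adjusted p, and for the member of each role with the highest mean. Alternatives were other scalings, filters and blocks, 1 CPM added, edgeR 4.0.16, DESeq2 1.42.0, removal of genes with over 10% wrongly assigned reads, and left-out libraries; the lung fit over 4 rats without a block was chosen after seeing the data. The fits were run on simulated counts with the same spread for all genes and no difference between rats. Only genes with more reads were changed there, so rat effects and members with few reads were not covered. Columns not mapped to a sample numbered 0. A planned search of promoters for a motif was not run. The values of 1 pathway gene are not reported here.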

Additional observations from a re-analysis of the deposited data

Results flagged for a closer look

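Single libraries stood apart from the other 4 of their group, by a gap of more than 0.71 of the group's range on the log2 scale, for 7 of 231 groups of 5 values examined. Chance alone marks about 1 in 20 such groups. In 4T1 cells, Oas1a was low in the core of Rat3869 (2.81 CPM), and Ifit2 (25.7 CPM) and Isg20 (37.8 CPM) were high in the rim of Rat3875. In the host, the library labelled lung of Rat3789 was low for Irf7 (27.8 CPM), Rsad2 (4.15 CPM), Isg20 (2.45 CPM) and Isg15 (7.91 CPM). It also held the lung epithelium markers at the level of the rims.

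The 4T1 and host differences between core and rim differed from each other for 15 of 37 members (40.5%), by limma on the difference itself. Of all 9759 shared genes, 35.8% did. The log2 difference of 4T1 minus host was 2.81 for Zbp1 (adjusted p 0.00772), 2.18 for Rsad2 (0.0355), 2.17 for Mx2 (0.0102), 1.60 for Rtp4 (0.0216), 1.53 for Ifit2 (0.000581) and 1.44 for Cmpk2 (0.0353). It was 1.32 for Ifi27 (0.000927), 1.20 for Xaf1 (0.00506), 1.01 for Igtp (0.00488), 0.81 for Dtx3l (0.0085), 0.78 for Isg15 (0.038), 0.71 for Irf9 (0.0257), 0.60 for Irf1 (0.0298) and 0.53 for Ddx58 (0.0351). For Ifit1 it was -2.07 (0.049).

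Between lung and rim the same test marked 10 of 37 members (27.0%), against 21.7% of 9792 shared genes. The log2 difference of 4T1 minus host was 1.41 for Isg15 (adjusted p 0.00993), 1.37 for Mx2 (0.0444) and 0.43 for Ifi27 (0.0354). It was -2.47 for Ifit1 (0.0073), -2.28 for Ifi47 (0.00202), -2.07 for Isg20 (0.0177), -1.10 for Bst2 (0.0193), -0.81 for Irf1 (0.0325), -0.62 for Parp14 (0.0163) and -0.61 for Dtx3l (0.041). These values include the library labelled lung of Rat3789.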

How the results depend on the processing

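No member call changed sign in any setting, and the cause of the changes below was not tested. With 1 rat left out, 1272 (without Rat3875) to 2397 mouse genes passed for core against rim (1357 without Rat3867), against 2585 with all rats, and 3794 to 4734 rat genes, against 5092. Mouse members lower were then 5 (without Rat3867) to 8 in place of 10, host members higher 1 to 2 and lower 24 to 28. Host Ifit1 was not called once any 1 rat but Rat3875 was left out. Without Rat3876 and Rat3877, 5 mouse members were lower, and in the host 3351 genes were called with 1 member higher and 16 lower. With a filter of 5 CPM 1 host member was higher. With no replicate block 1 host member was higher and 26 lower (5049 genes), and 7 mouse members were lower (2630 genes), between core and rim. For the lung, the replicate block over 4 rats also leaves out the lung of Rat3789 and the rim of Rat3867, and gave 5 mouse members higher and 5 lower (2436 genes) and 9 host members higher (3656 genes). The same libraries with no replicate block, a setting chosen after seeing the data, gave 4 mouse members higher and 1 lower (1989 genes) and 4 host members higher (3722 genes), so leaving out these libraries also moved the counts. In the lung, calls ranged over 1544 (without the lung of Rat3877) to 3310 mouse genes (2603 with all libraries, and 1723 without the rim of Rat3867), with 0 to 5 members higher and 1 to 6 lower, and over 2196 to 4113 rat genes (3065 with all), with 1 to 4 higher and 0 to 1 lower. The highest of these higher counts, 5 and 4, came without the library labelled lung of Rat3789, and for the host also without the rim of Rat3877. Total-count scaling gave 3 mouse members lower and 4 host members higher in lungs and moved the median of all rat genes to 0.15; no filter gave 3 mouse members lower, a filter of 5 CPM 0 host members higher, and DESeq2 2 mouse members higher and 1 host member lower. For 4T1 minus host, leaving out 1 rat gave 7 to 14 members higher and 0 to 2 lower between core and rim (2483 to 3453 genes). Leaving out 1 library gave 1 to 4 higher and 4 to 11 lower between lung and rim (1491 to 2816 genes). A filter of 5 CPM gave 0 lower between core and rim, and total-count scaling 1 higher in the lung. Host cores had the fewest reads, which limits their low genes such as Ifit1, Rsad2 and Cmpk2.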
